A study of Homo sapiens with 8 samples.

Results

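Gene expression after silencing of ESRP1 in Caco-2 cells was measured on 4 Illumina BeadChip arrays, 2 of ESRP1-silenced and 2 of Scr cells, out of 8 arrays in the series. A probe was a member where its detection p was under 0.01 on 2 or more of these 4 arrays, which held for 17499 of the 47322 probes on the array, and the members named 10519 genes. Caco-2 is an established human colorectal cancer cell line, and the cells were grown as adherent monolayers. ESRP1-silenced cells carried a lentiviral short hairpin named sh4 against ESRP1, Scr cells carried a scrambled hairpin, and both belonged to the pLKO.1 vector system that the methods describe with puromycin selection. Only sh4 is named in the labels, so what the hairpin itself did and what the loss of ESRP1 did cannot be told apart. The other 4 arrays, on a second chip, held Caco-2 cells with an ESRP1 expression vector (ESRP1-overexpressing) or its Empty control, selected with blasticidin. The comparison asked how the transcripts of these cells differ when ESRP1 is reduced.

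ESRP1 encodes an RNA-binding protein of epithelial cells that steers alternative splicing. It favours the epithelial forms of transcripts such as FGFR2, CD44, ENAH and CTNND1, and it is known to be lost when epithelial cells take on mesenchymal traits. A change in splicing need not change the total amount of a transcript, and a probe reports only the stretch of the transcript to which it binds.

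Detected probes numbered 16966 to 17535 on the 4 arrays, and the arrays of a group correlated at 0.991 (Scr) and 0.989 (ESRP1-silenced) across the tested probes, against 0.983 to 0.988 between the groups. All 9 colon epithelial markers with a probe were detected on every one of the 4 arrays, with a summed linear level of 137813 to 153607. Fibroblast markers reached 756 to 856 (3 or 4 of 10 detected), and PTPRC, CD3E and CDH5 had no tested probe. Endothelial markers (1 or 2 of 10 detected, ESAM and PECAM1) summed to 431 and 467 in Scr and 289 and 295 in ESRP1-silenced cells, and leukocyte markers (3 of 9, mostly LCP1) to 6761 and 7344 against 5813 and 6071. Both sums were thus lower in ESRP1-silenced cells, with no marker called, and their part in the results was not tested. Of the 17499 probes, 133 were detected on both Scr arrays and neither ESRP1-silenced array, and 279 the other way round, so these had passed the filter only through the brighter group. Whether the arrays of a group came from separate cultures is not given in the labels, so the p-values measure only how far these arrays differ, possibly for technical reasons. With 2 arrays a group, the smallest p of an exact permutation test is 0.333. In RNA from a whole culture, fewer cells that express a gene and less RNA per cell cannot be told apart.

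ESRP1, which has 1 probe on the array, had normalized log2 intensities of 8.03 and 8.32 on the Scr arrays and of 6.37 and 6.16 on the ESRP1-silenced arrays, where it was not detected. The groups did not overlap, and ESRP1 was at least 3.09-fold lower in ESRP1-silenced cells (adjusted p = 0.0373 from limma). This bound sets the Scr mean against the lowest value of a detected probe on each ESRP1-silenced array, and the same rule gives the folds below for probes not detected in a group, although the plots show fitted differences for such probes too. Its log2 fold change was -1.01 on the authors' normalized values (adjusted p = 0.0036) and -0.95 with quantile normalization and no background correction (adjusted p = 0.0026), so the size of the bound holds for the background correction used here.

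Across the transcriptome, silencing went with a small number of called probes. With limma, 36 of 17499 probes (0.206%) had an adjusted p under 0.05. Of these, 10 were higher (0.0571%) and 26 lower (0.149%) in ESRP1-silenced than in Scr cells, and 32 of them named 30 genes. Their adjusted p-values lay close to the threshold, between 0.0373 and 0.0482. The called probes of ESRP1, SYNPO2L, NACAD, SDCBP2 and SYT3, and some without a gene name, were undetected on both arrays of 1 group. They had passed the filter only through the brighter group, and their calls and p-values carry that limit. Without adjustment, 1254 probes were higher (7.17%) and 1246 lower (7.12%) at p under 0.05, and in each direction 22.9% of probes had groups that did not overlap. The median probe had a log2 fold change near 0, while 60 probes were higher and 68 lower by more than 1 on the log2 scale. Leaving out any 1 of the 8 arrays left 0 calls (lowest adjusted p from 0.0543 to 0.265, limma). Of the calls, 27.8% were higher, but 49.3% of 300 calls with quantile normalization and no background correction, 46.8% of 250 calls on the authors' normalized values and 45.9% of 556 calls with a trended, robust variance prior.

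**Figure D1:**
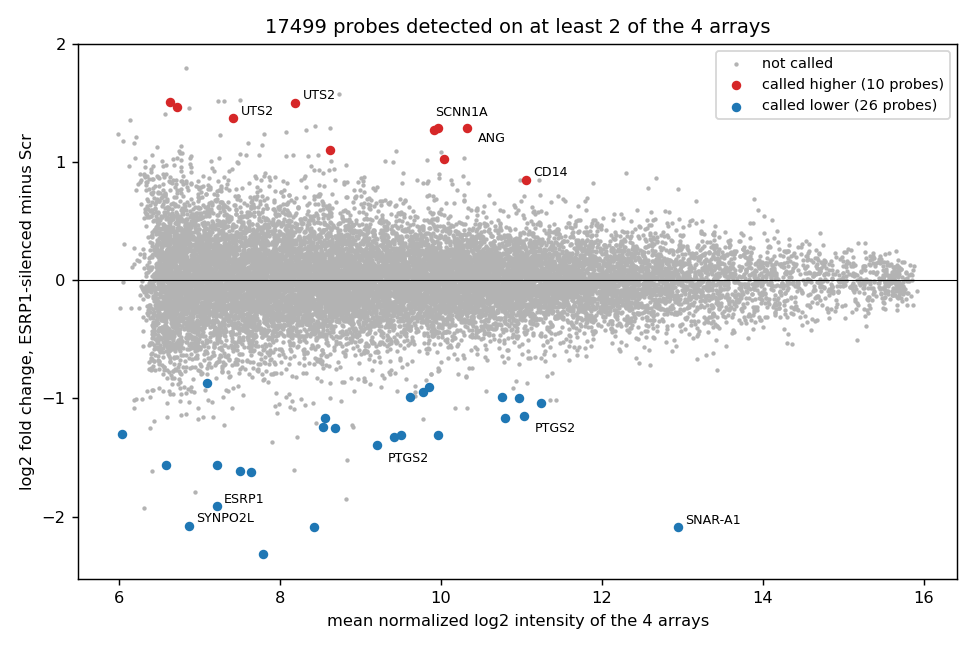
The plot of change against level shows each of the 17499 tested probes by its mean normalized log2 intensity over the 4 arrays and its log2 fold change, ESRP1-silenced minus Scr, with called probes in colour. The 10 probes called higher (red) and 26 called lower (blue) lie at the edge of a cloud centred on 0, and SNAR-A1 is the brightest of the probes called lower.

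Rises and falls below are differences from the Scr arrays and do not say which group departed. The named rises were those of 8 genes. UTS2 encodes the vasoactive peptide urotensin 2, and its brighter probe stood at 7.41 and 7.47 on the Scr arrays against 9.10 and 8.80 on the ESRP1-silenced arrays, a log2 fold change of 1.51 (SE 0.15). A second UTS2 probe, also called, read 6.70 and 6.77 against 8.06 and 8.15 (log2 fold change 1.37, SE 0.15). Both probes of the gene thus separated the groups by more than 1 on the log2 scale. ANG, the gene of the secreted ribonuclease angiogenin, had values of 9.74 and 9.61 in Scr and 11.09 and 10.85 in ESRP1-silenced cells, a log2 fold change of 1.30 (SE 0.14). The brighter ANG probe read 11.40 and 11.52 against 12.25 and 12.07, a log2 fold change of 0.70 with an adjusted p of 0.11. The groups were apart on both ANG probes, by different amounts.

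SCNN1A encodes a subunit of the epithelial sodium channel through which colon epithelium takes up sodium. It was measured at 9.39 and 9.26 in Scr and at 10.56 and 10.67 in ESRP1-silenced cells, a rise of 1.29 on the log2 scale (SE 0.13, adjusted p = 0.0373). CST1, a secreted inhibitor of cysteine proteases, rose by 1.27 (SE 0.15), from 9.33 and 9.21 to 10.75 and 10.35. CD14, a coreceptor for bacterial lipopolysaccharide, rose by 0.85 (SE 0.11), from 10.57 and 10.70 to 11.46 and 11.52. Its dimmer probe was higher by 1.05 and did not pass the test (adjusted p = 0.11). Each of these genes was above both Scr arrays on both ESRP1-silenced arrays.

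CACHD1, which encodes a membrane protein related to calcium channel subunits, rose by 1.11 (SE 0.13), from 7.94 and 8.20 to 9.18 and 9.18. COL2A1, a fibrillar collagen chain best known from cartilage, rose by 1.03 (SE 0.11), from 9.52 and 9.53 to 10.57 and 10.54. SYT3, a member of the synaptotagmins of secretory vesicles, was not detected on the Scr arrays (6.13 and 5.86) and read 7.65 and 7.27 in ESRP1-silenced cells, at least 1.77-fold higher. The remaining rise was a probe without a gene name, not detected in Scr and at least 1.70-fold higher. All of these calls had adjusted p from 0.0373 to 0.0482 (limma).

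The next genes by size of change did not pass the test. MSMB, which encodes a secreted protein known from prostatic fluid, read 8.06 and 7.84 in Scr and 9.38 and 9.68 in ESRP1-silenced cells, a log2 fold change of 1.58 (SE 0.25, adjusted p = 0.085). Its other probes gave 1.53 and 1.52, the latter detected on only 1 Scr array, so that all of its tested probes were higher. In ESRP1-overexpressing against Empty cells its brightest probe was called higher as well (adjusted p = 0.0037, limma). It read 8.43 and 8.67 against 6.52 and 5.79, and these Empty values lay below the lowest of a detected probe there. SPTSSB, a regulatory subunit of the enzyme that starts sphingolipid synthesis, had 1.30 and 1.06 on its probes. SYP, the synaptic vesicle protein synaptophysin, had 1.28, and GM2A, a lysosomal cofactor for ganglioside breakdown, had 1.26. Adjusted p for the SPTSSB, SYP and GM2A probes ran from 0.075 to 0.14.

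**Figure D2:**
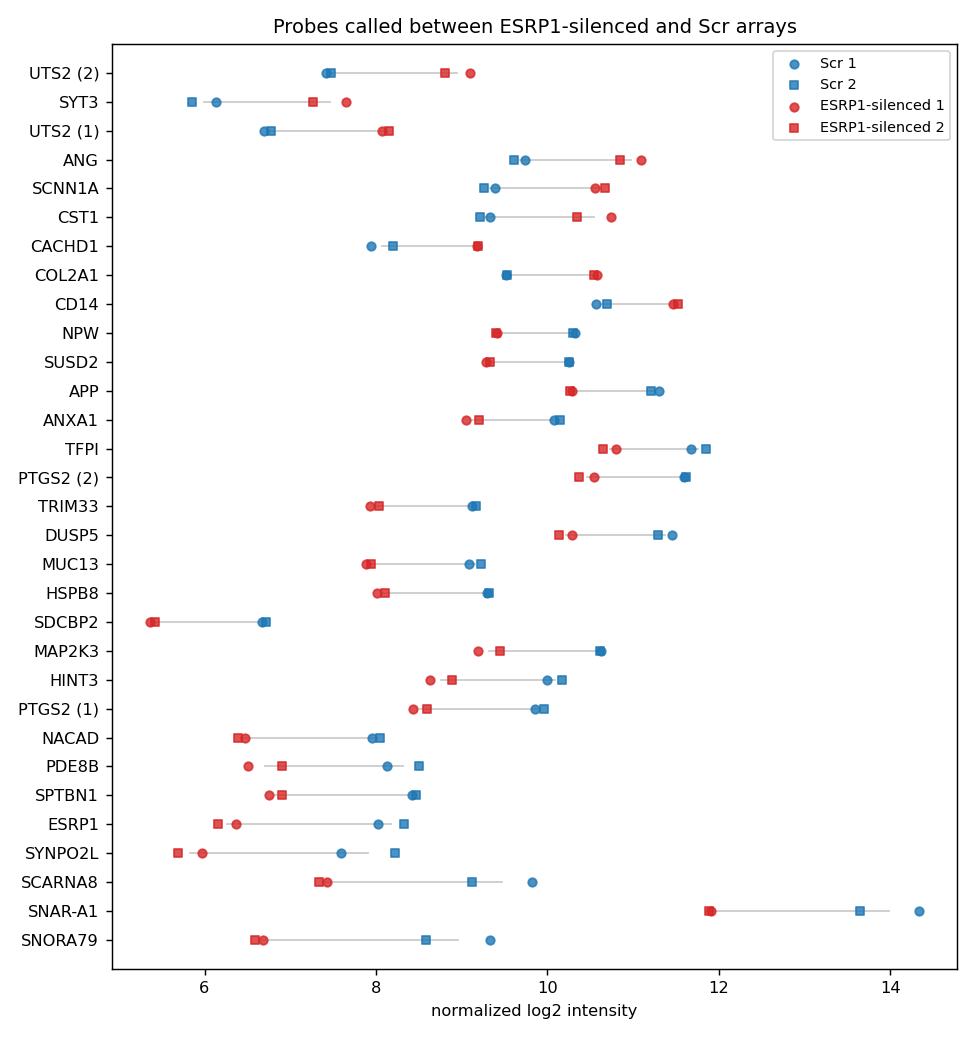
The plot by array gives the normalized log2 intensity of each called probe of the genes named here on the 2 Scr arrays (blue) and the 2 ESRP1-silenced arrays (red), with a line joining the group means. The groups do not overlap for any probe shown, and for SNORA79, SNAR-A1 and SCARNA8 the Scr arrays lie further apart than for most others.

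The falls included PTGS2, DUSP5 from the list of ERK feedback genes, and MAP2K3 and HSPB8 from the p38 list. The lists were written with earlier results of these data known, so a called gene in a list is no support for a pathway. PTGS2 encodes cyclooxygenase 2, the inducible enzyme that makes the prostaglandin precursor. Its brighter probe read 11.59 and 11.61 in Scr and 10.54 and 10.37 in ESRP1-silenced cells, a log2 fold change of -1.15 (SE 0.12), and its other probe 9.86 and 9.96 against 8.43 and 8.60, a log2 fold change of -1.40 (SE 0.13). PTGS2 was thereby called on both of its probes (adjusted p = 0.0373 for each, limma). DUSP5, a nuclear phosphatase that inactivates ERK, fell by 1.16 (SE 0.12), from 11.46 and 11.29 to 10.28 and 10.14. MAP2K3, the kinase that activates p38, fell by 1.31 (SE 0.14), from 10.63 and 10.61 to 9.19 and 9.44. Another MAP2K3 probe read 7.90 and 7.69 against 6.82 and 6.79, a log2 fold change of -0.99 (adjusted p = 0.11). HSPB8, a small heat shock protein, fell by 1.25 (SE 0.14), from 9.30 and 9.32 to 8.01 and 8.11.

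SYNPO2L and ANXA1, placed here in the list of membrane skeleton genes, were also called lower. SYNPO2L, an actin-associated protein known from muscle, read 7.59 and 8.22 in Scr and 5.97 and 5.69, not detected, in ESRP1-silenced cells, at least 2.56-fold lower. SPTBN1, a beta spectrin of non-erythroid cells, fell by 1.62 (SE 0.15) on 1 probe, from 8.42 and 8.47 to 6.75 and 6.90. The brightest SPTBN1 probe read 11.78 and 11.21 against 11.49 and 11.23, groups that overlapped, and its remaining probe was lower by 0.22 on the log2 scale (adjusted p = 0.46). ANXA1, a calcium-dependent phospholipid-binding protein, fell by 0.99 (SE 0.12), from 10.07 and 10.15 to 9.04 and 9.20.

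MUC13, a transmembrane mucin of the intestinal surface, fell by 1.24 (SE 0.12), from 9.08 and 9.23 to 7.88 and 7.94. SUSD2, a sushi domain protein of the cell membrane, fell by 0.95 (SE 0.11), from 10.25 and 10.26 to 9.28 and 9.33. The amyloid precursor protein gene APP fell by 0.99 (SE 0.12), from 11.30 and 11.21 to 10.28 and 10.26, while its other probes, at -0.91 and -0.25 on the log2 scale, missed the threshold. TFPI, which inhibits the tissue factor pathway of coagulation, fell by 1.03 (SE 0.12), from 11.67 and 11.85 to 10.80 and 10.65. The other TFPI probes were lower by 0.81 and 0.82 (adjusted p = 0.067 and 0.06), so its probes were lower by similar amounts. SDCBP2, the syntenin 2 gene, read 6.67 and 6.72 in Scr and was not detected in ESRP1-silenced cells (5.37 and 5.42), at least 1.11-fold lower.

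Of the remaining named falls, TRIM33, a ubiquitin ligase that acts on SMAD signalling, fell by 1.16 (SE 0.12), from 9.12 and 9.17 to 7.93 and 8.03, with -0.75 on its brighter probe (adjusted p = 0.11). PDE8B, a phosphodiesterase that breaks down cyclic AMP, fell by 1.61 (SE 0.20) on the brighter of its probes. It read 8.13 and 8.51 in Scr against 6.51 and 6.90 in ESRP1-silenced cells, where it was detected on only 1 array. The other PDE8B probe was detected on only 1 Scr array. HINT3, a histidine triad hydrolase, fell by 1.33 (SE 0.15) on 1 probe, from 9.997 and 10.17 to 8.63 and 8.89. For PDE8B and HINT3 the other probe gave -0.05 and -0.30, and the groups overlapped on both of these. NACAD, a relative of the nascent polypeptide-associated complex, was not detected in ESRP1-silenced cells and was at least 2.73-fold lower (7.95 and 8.04 against 6.47 and 6.40). NPW, the gene of neuropeptide W, fell by 0.90 (SE 0.10), from 10.32 and 10.30 to 9.41 and 9.40. A further 3 falls were probes without a gene name.

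Small noncoding RNAs were called lower as well. SNORA79, a small nucleolar RNA, read 9.33 and 8.58 in Scr and 6.68 and 6.59 in ESRP1-silenced cells, a log2 fold change of -2.32 (SE 0.24). SCARNA8, a small Cajal body RNA, read 9.82 and 9.12 against 7.43 and 7.34, a log2 fold change of -2.09 (SE 0.22). SNAR-A1, a noncoding RNA that binds the protein NF90, read 14.33 and 13.64 against 11.91 and 11.89, likewise -2.09 (SE 0.24). On all 3, both ESRP1-silenced arrays lay below both Scr arrays, and Scr replicate 1 was the higher of the Scr arrays.

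Across the 146 small nuclear, nucleolar and related RNA genes measured, 0 were called higher and 3 lower, and 10 were higher and 29 lower at an unadjusted p under 0.05, where 6.64% and 8.39% of all genes were. Their median log2 fold change was -0.07, against -0.01 over all 10519 genes. Scr replicate 1 exceeded Scr replicate 2 for 116 of the 146 genes, by a median of 0.26 on the log2 scale, against -0.01 over all genes. Without Scr replicate 1 the list's median lay 0.03 above that of all genes, so its direction rests on that array. SNORA79, SCARNA8 and SNAR-A1 themselves then had log2 fold changes of -1.95, -1.74 and -1.75. On the authors' normalized values SNORA79 had -1.43, SCARNA8 -1.47 and SNAR-A1 -2.04. Copies of SNAR-A1 in the genome are near identical, so its probe may read several of them.

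The promoters of called genes are shown for the members called on both of their probes, PTGS2 and UTS2, and, as examples, for MUC13 and CD14. Like those of MAP2K3, SDCBP2 and NACAD, the promoters of MUC13 and CD14 hold an AP-1 motif or a cyclic AMP response element, both given below. CD14 was called higher and the others lower. Sequences are the 250 bases before the transcription start in RefSeq (GRCh38.p14), read 5′ to 3′ on the strand of the gene, and capitals mark the motifs found.
PTGS2, chr1:186680424-186680673, minus strand: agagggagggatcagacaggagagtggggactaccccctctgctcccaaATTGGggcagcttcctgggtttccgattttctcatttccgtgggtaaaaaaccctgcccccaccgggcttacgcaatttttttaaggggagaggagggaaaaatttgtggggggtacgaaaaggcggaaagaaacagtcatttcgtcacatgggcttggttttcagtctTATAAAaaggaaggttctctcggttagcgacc
UTS2, chr1:7853492-7853741, minus strand: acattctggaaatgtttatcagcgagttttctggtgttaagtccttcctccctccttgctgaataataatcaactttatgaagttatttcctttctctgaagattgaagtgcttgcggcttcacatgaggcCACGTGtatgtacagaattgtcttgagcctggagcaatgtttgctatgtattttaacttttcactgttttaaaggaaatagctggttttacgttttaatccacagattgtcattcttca
MUC13, chr3:124934752-124935001, minus strand: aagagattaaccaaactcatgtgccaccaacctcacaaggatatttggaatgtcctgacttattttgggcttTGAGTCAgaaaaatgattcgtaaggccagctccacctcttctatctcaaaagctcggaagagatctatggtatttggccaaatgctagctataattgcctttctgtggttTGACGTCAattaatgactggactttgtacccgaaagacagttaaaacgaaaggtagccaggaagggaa
CD14, chr5:140633176-140633425, minus strand: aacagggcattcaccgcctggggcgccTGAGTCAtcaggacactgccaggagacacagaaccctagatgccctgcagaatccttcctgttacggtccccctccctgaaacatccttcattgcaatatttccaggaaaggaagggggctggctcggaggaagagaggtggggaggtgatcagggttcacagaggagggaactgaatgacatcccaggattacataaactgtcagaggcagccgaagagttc
A promoter was matched for 20 of the 30 named genes, 5 that rose and 15 that fell. Motifs were searched by their exact letters on both strands in these 250 bases, so a variant form of a motif was not counted. The TATA box (TATAAA) was in 3 of the 15 promoters of genes that fell (PTGS2, ANXA1 and APP) and 0 of the 5 that rose, against 11.1% of 27305 promoters. In PTGS2 it begins 32 bases before the start. The AP-1 motif (TGANTCA) was in 3 of 15 (MAP2K3, SDCBP2 and MUC13) and 1 of 5 (CD14), against 6.6% of all promoters. The cyclic AMP response element (TGACGTCA) was in 2 of 15 (NACAD and MUC13) and 0 of 5, against 1.77%. In MUC13 it begins 68 bases and the AP-1 motif 178 bases before the start. The E-box (CACGTG) was in 0 of 15 and in 1 of 5 (UTS2), against 6.49%, and the CCAAT box (CCAAT), on the opposite strand in PTGS2, in 4 of 15 and 0 of 5, against 33.0%. These matches are descriptions of letters in a window, and whether any motif acted in these cells was not tested.

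Genes of plasma proteins made by the liver, several of which Caco-2 cells are known to produce, were higher more often than lower. Of 47 listed, 38 were measured. At the threshold used for calls 0 passed, but 15 were higher and 1, TFPI, lower at an unadjusted p under 0.05, where 6.64% and 8.39% of all genes were. TFPI and ANG entered the list by brighter probes than those called above. The list's median log2 fold change was 0.20, or 0.17 with the gene below detection in a group set at its bound, against -0.01 over all genes. ITIH2, a chain of the inter-alpha-trypsin inhibitor, had the largest difference, with 7.48 and 6.88 in Scr and 8.24 and 8.59 in ESRP1-silenced cells (log2 fold change 1.24, SE 0.24, adjusted p = 0.11). APOH, an apolipoprotein that binds phospholipid, read 9.93 and 9.62 against 10.68 and 10.93 (1.04, SE 0.16, adjusted p = 0.081). Coagulation factor X (F10) read 8.68 and 8.43 against 9.28 and 9.50 (0.84), and the heme carrier hemopexin (HPX) 7.03 and 7.37 against 8.07 and 7.98 (0.83). All 4 had groups that did not overlap, as 22% of all genes had in this direction. Relative to all genes the list's median stayed above 0 under each alternative tried, from 0.13 to 0.25.

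Genes of enterocytes and their brush border were lower on balance. Of 45 listed, 25 were measured, 0 were called, and 8 were lower and 1 (USH1C, a scaffold of microvilli, named after its value was seen) higher at an unadjusted p under 0.05, against 8.39% and 6.64% of all genes (0.238% called). Their median log2 fold change was -0.39. MYO1A, the myosin that ties the microvillar actin core to the membrane, read 9.39 and 9.63 in Scr and 8.32 and 8.25 in ESRP1-silenced cells (-1.23, SE 0.18, adjusted p = 0.075). The surface glycoproteins CEACAM6 and CEACAM1 had log2 fold changes of -1.01 (adjusted p = 0.067) and -0.98 (adjusted p = 0.12), and CLRN3, a clarin membrane protein, of -0.86 (adjusted p = 0.11). The ESRP1-silenced arrays differed from each other here, with list medians of -0.52 and -0.20 against the Scr mean, and relative to all genes the median ranged from -0.50 to -0.17 over the alternatives.

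Mucin and other secretory genes lay on both sides. Of 14 measured, 1 was called lower, MUC13, and 6 were higher and 4 lower at an unadjusted p under 0.05, with a median log2 fold change of 0.13. The trefoil peptide genes, named after their values were seen, illustrate this, with TFF1 lower by 1.13 on the log2 scale and TFF2 and TFF3 higher by 1.06 and 0.51, none of them past the test (adjusted p = 0.11, 0.21 and 0.22). In the ion transport list, 17 genes were measured and SCNN1A alone was called, with a list median of 0.02. For comparison, 0.0665% of all genes were called higher and 0.171% lower. Without adjustment, 6.64% of all genes were higher and 8.39% lower at p under 0.05.

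Immediate early genes, which respond within a short time to growth factors and stress, also lay on the lower side. Of 23 listed, 18 were measured, 0 were called, and at p under 0.05 without adjustment 5 were lower and 0 higher (8.39% and 6.64% of all genes), with a median log2 fold change of -0.26. JUN, a subunit of AP-1, read 9.09 and 9.06 in Scr and 8.29 and 8.35 in ESRP1-silenced cells (-0.75, SE 0.19, adjusted p = 0.18). The zinc finger factor KLF6 read 12.81 and 12.80 against 12.16 and 12.05 (-0.70, adjusted p = 0.12), and the phosphatase DUSP1 10.81 and 10.93 against 10.22 and 10.23 (-0.65, adjusted p = 0.097). KLF4, another zinc finger factor, had -0.56 (adjusted p = 0.47). The groups did not overlap on any of these probes, and 25.8% of all genes were separated in this direction. Relative to all genes the list's median ranged from -0.28 to -0.13 over the alternatives.

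Over all genes, 0.0665% were called higher and 0.171% lower, and 6.64% were higher and 8.39% lower at an unadjusted p under 0.05. In 15 measured genes of ERK feedback, DUSP5 was called lower. At an unadjusted p under 0.05 there were 2 lower and 2 higher genes, with a median of -0.12. The p38 list (19 measured) had MAP2K3 and HSPB8 called lower and a median of -0.02, which changed sign relative to all genes under some alternatives. Among 11 prostaglandin genes PTGS2 was called lower, 3 were lower and 0 higher without adjustment, and the median was -0.10. The NF-kB target list (17 measured) had PTGS2 called lower and CD14 called higher, with a median of -0.07. In the spectrin and actin membrane skeleton list (19 measured), SYNPO2L and ANXA1 were called lower, 5 were lower and 1 higher without adjustment, and the median was -0.18. SPTBN1 entered this list by its brightest probe, on which the groups overlapped.

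**Figure D3:**
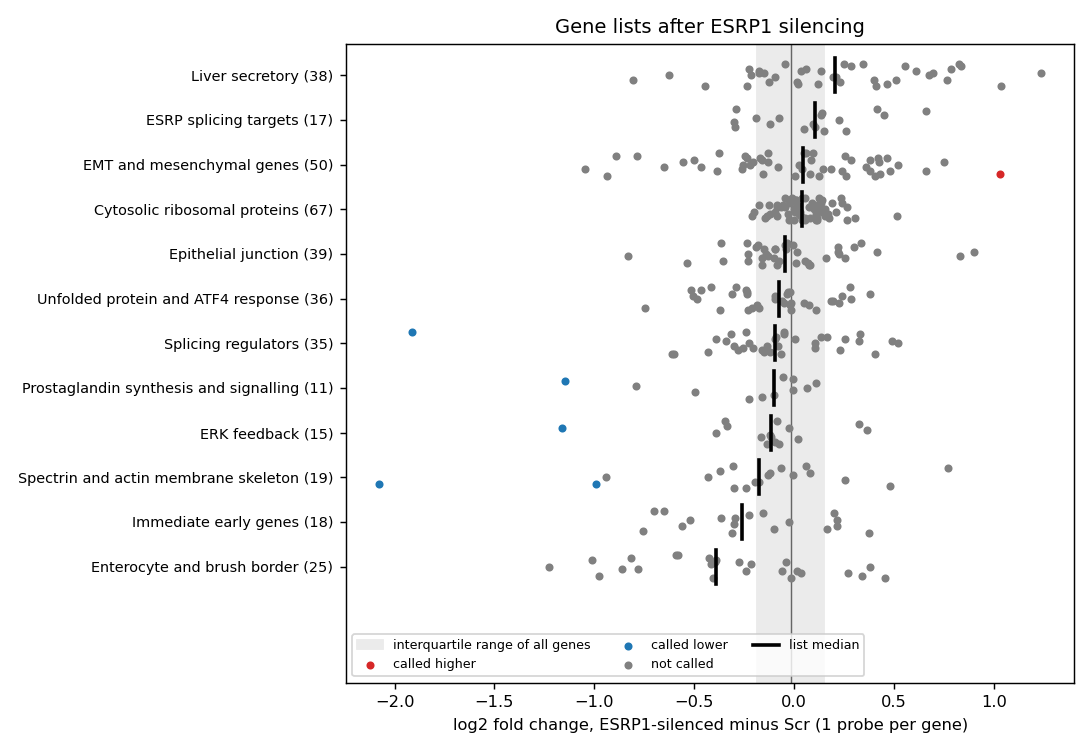
The plot of gene lists shows the log2 fold change, ESRP1-silenced minus Scr, of each measured gene (1 probe per gene, number measured in parentheses) in 12 lists, with a black bar at the list median and a grey band for the interquartile range of all genes. The liver secretory list lies highest with a median of 0.20 and the enterocyte and brush border list lowest with -0.39, and few genes of any list were called.

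Genes of the mesenchymal programme lay on both sides as well. Of 79 listed, 50 were measured, with COL2A1 called higher and 0 called lower (0.0665% and 0.171% of all genes). Before adjustment, p was below 0.05 for 11 genes with a rise and 9 with a fall, against 6.64% and 8.39% of all genes. Such genes were thus more frequent in this list in both directions, while its median log2 fold change was 0.05. Among 39 measured epithelial junction genes, 0 were called and the median was -0.04. CGNL1, a junction protein related to cingulin, stood at 0.90 on the log2 scale (adjusted p = 0.075), EPB41L5, a FERM domain protein, at 0.83 (adjusted p = 0.1), and the claudins CLDN4 and CLDN2 at -0.83 and -0.53 (adjusted p = 0.4 and 0.32).

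Transcripts whose splicing ESRP proteins are known to regulate gave no call on the brightest tested probe of each gene, which need not reflect the whole transcript. Of 22 listed, 17 were measured, 0 were called, and 2 were higher and 0 lower at an unadjusted p under 0.05, with a median of 0.10. These 2 were FGFR2, which read 7.04 and 6.57 in Scr and 7.46 and 7.48 in ESRP1-silenced cells (0.66, SE 0.20, adjusted p = 0.24), and the hyaluronan receptor gene CD44, with 9.48 and 9.52 against 9.96 and 9.95 (0.45, adjusted p = 0.21). FGFR2 was detected on only 1 of the Scr arrays. CTNND1, the p120 catenin gene, had 0.41 (adjusted p = 0.49), and MBNL1, itself a splicing factor, -0.30 (adjusted p = 0.39). In the list of splicing regulators (35 measured), ESRP1 was the only gene called, where 0.171% of all genes were called lower. At an unadjusted p under 0.05 there were 3 higher and 6 lower genes, ESRP1 included (6.64% and 8.39% of all genes).

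The other genes on which the study turned gave no call in these adherent cells. The paper's results on AKT phosphorylation, FGF7 and Snail came from ESRP1-overexpressing Caco-2 cells in suspension. The RNA levels here do not test those results. VCAN, the proteoglycan versican, read 7.09 and 6.20 in Scr and 7.22 and 7.57 in ESRP1-silenced cells (0.75, SE 0.30, adjusted p = 0.33) and was detected on 1 Scr array. Its log2 fold change ranged from 0.30 to 1.20 on leaving out 1 array. MYC, a growth-promoting transcription factor, read 13.11 and 13.02 against 12.51 and 12.57 on its brighter probe (-0.52, SE 0.10, adjusted p = 0.12) and 11.11 and 11.24 against 10.59 and 10.82 on the other (-0.47, adjusted p = 0.22). Of 3 probes of the actin regulator ENAH on the array, 2 were tested. ENAH had -0.19 on the brighter and 0.02 on the other, which was detected on only 1 array of each group. AKT1 had -0.20 and 0.01 on its probes, its substrate GSK3B -0.13 and the growth factor FGF18 -0.03 on its brighter probe. The dimmer FGF18 probe was not detected in ESRP1-silenced cells, with a bound of at least 1.22-fold lower. Each of these had adjusted p from 0.35 to 0.99. No probe of FGFR1, FGF2, FGF7, FGF10, SNAI1 or TWIST1 was detected on 2 or more of the 4 arrays. FRS2 was named by no probe on the array.

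No further list had a call on the probe that stood for each gene, and TRIM33 entered the TGF-beta and BMP list by its brighter, uncalled probe. The p53 target list (20 measured) had a median of 0.11, or 0.047 with the gene below detection in a group set at its bound, with DRAM1 and BAX, genes of autophagy and apoptosis, at 0.83 each (adjusted p = 0.081 and 0.091) and the cell cycle inhibitor CDKN1A at -0.73 (adjusted p = 0.18). The unfolded protein and ATF4 list (36 measured) had 7 lower and 1 higher gene at an unadjusted p under 0.05 (8.39% and 6.64% of all genes). The median of this list was -0.08. Its cystine transporter gene SLC7A11 was not detected in ESRP1-silenced cells, at least 1.25-fold lower (adjusted p = 0.11), while the chaperone CANX and the stress sensor ATF6 had -0.52 and -0.51 (adjusted p = 0.16 for both). The metallothionein list had 6 measured genes, including MTF1, a transcription factor and not a metallothionein, and a median of -0.34. At an unadjusted p under 0.05, 2 of its genes (MTF1 among them) were higher and 0 lower (6.64% and 8.39% of all genes). Relative to all genes, its median ranged from -0.48 to -0.16 on leaving out 1 array. Medians were -0.11 for PI3K and AKT, -0.09 for cholesterol synthesis, -0.08 for replication and mitosis and for MYC and ribosome biogenesis, -0.04 for hypoxia and glycolysis, -0.01 for FGF receptors and ligands and 0.01 for TGF-beta and BMP. They were 0.03 for interferon-induced genes, 0.04 for histones and for cytosolic ribosomal proteins, and 0.08 for Wnt targets. Relative to all genes, the FGF, TGF-beta, interferon, Wnt, MYC, replication and ion transport lists changed sign under at least 1 of the alternatives tried.

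Since ESRP1 acts on splicing, the probes of the same gene were compared with each other. In 2722 genes with more than 1 tested probe, 3391 pairs were formed from the brightest probe and each other probe, and the difference between the members of a pair was tested. With limma 0 pairs were called (lowest adjusted p 0.227), while 268 (7.9%) had an unadjusted p under 0.05. In 193 of these 268 (72.0%) the probes had changes of opposite sign, against 38.5% of all pairs, and choosing pairs for their difference favours opposite signs. Over all pairs the changes of the probes correlated at 0.417, as a description, with both probes read on the same arrays.

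MDK, the growth factor midkine, had the smallest p. Its bright probe read 13.80 and 13.67 in Scr and 14.31 and 14.26 in ESRP1-silenced cells, and its dim probe 7.35 and 7.49 against 6.57 and 6.71. The first was higher by 0.55 and the second lower by 0.78 on the log2 scale, a difference of 1.33 (SE 0.19, unadjusted p = 0.00013 from limma). In PDE8B the difference was -1.56 (SE 0.22), between the called probe, detected on only 1 ESRP1-silenced array, and one whose groups overlapped. In WAPL, a regulator of cohesin release, one probe stood at 0.01 and the other, not detected in ESRP1-silenced cells, read 7.89 and 7.78 in Scr and 6.07 and 6.02 in ESRP1-silenced cells. SPTBN1 followed the same pattern, with a difference of 1.49 (SE 0.29) between a probe at -0.13 and the called one. In RPRD2, DYRK2, RPS6KA1 and GCNT2 the dimmer probe was not detected in Scr cells, and in CSTF3, a cleavage stimulation factor subunit, both probes were detected on all 4 arrays and had log2 fold changes of -0.26 and 0.79. CDC42EP1 completed the 10 pairs, with -0.51 and 0.30. None of these passed the test.

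**Figure D4:**
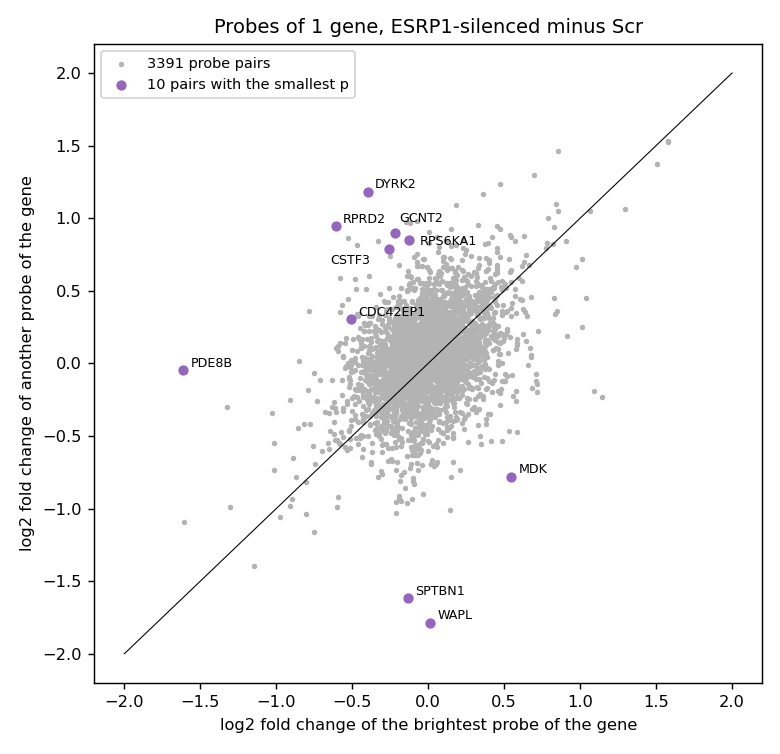
The plot of probe pairs sets the log2 fold change, ESRP1-silenced minus Scr, of the brightest probe of a gene against that of another probe of the same gene for 3391 pairs, with the diagonal marking equal change. The 10 pairs with the smallest p (purple) lie off the diagonal, with MDK, SPTBN1 and WAPL below it and PDE8B, DYRK2 and RPRD2 above.

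The same probes were also read in ESRP1-overexpressing against Empty cells, which share no array with the silencing comparison but lie on another chip with another vector. There 1417 of the 17499 probes were called (8.1%), 772 higher (4.41%) and 645 lower (3.69%). Of the 10 probes that rose with silencing, 1 was called higher and 3 lower with overexpression, and 9 had a change below 0. Of the 26 that fell, 6 were called higher (including SDCBP2, which was not detected on any of these 4 arrays) and 2 lower, and 13 had a change above 0. The difference between the comparisons was called for 9 of the 10 and 18 of the 26, against 649 of all 17499 probes (3.71%). Part of this is fixed by the choice of probes for their change with silencing. Across all tested probes the changes in the comparisons correlated at -0.02, as a description. On some called probes the Empty mean lay nearer the ESRP1-silenced than the Scr mean. UTS2 (brighter probe) had 7.44 in Scr, 8.95 in ESRP1-silenced and 9.14 in Empty cells. The called ANG probe had 9.68, 10.97 and 10.94, that of CD14 10.63, 11.49 and 11.66, and MUC13 9.15, 7.91 and 7.80. Others, such as SNAR-A1 (13.99, 11.90 and 14.52), lay nearer the Scr mean. Empty cells also differ in chip and vector, and which group departed was not tested.

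Genes called in opposite directions were ESRP1 itself, SCNN1A, CST1, COL2A1, PTGS2, MAP2K3 and SUSD2, all detected on every Empty and ESRP1-overexpressing array. CST1, higher by 1.27 with silencing, read 10.97 and 11.07 on the Empty and 8.61 and 8.62 on the ESRP1-overexpressing arrays, a log2 fold change of -2.40 (adjusted p = 0.00052, limma). COL2A1 read 9.98 and 9.94 against 8.59 and 8.42, a fold change of -1.46 on the log2 scale, and SCNN1A 11.25 and 11.10 against 10.10 and 9.92, of -1.17. These 3 genes rose with silencing and fell with overexpression, and were chosen here for that pattern. PTGS2 had 0.67 and 0.63 on its probes with overexpression, MAP2K3 0.64 and SUSD2 0.49. CACHD1 was called higher in both comparisons, with 1.11 for silencing and 1.26 for overexpression, and its difference was not called (adjusted p = 0.69). TFPI and NPW were called lower in both, with -0.80 and -0.46 for overexpression. The 3 small RNAs, SPTBN1, MUC13 and DUSP5 were not called with overexpression, with log2 fold changes from -0.76 to -0.08.

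**Figure D5:**
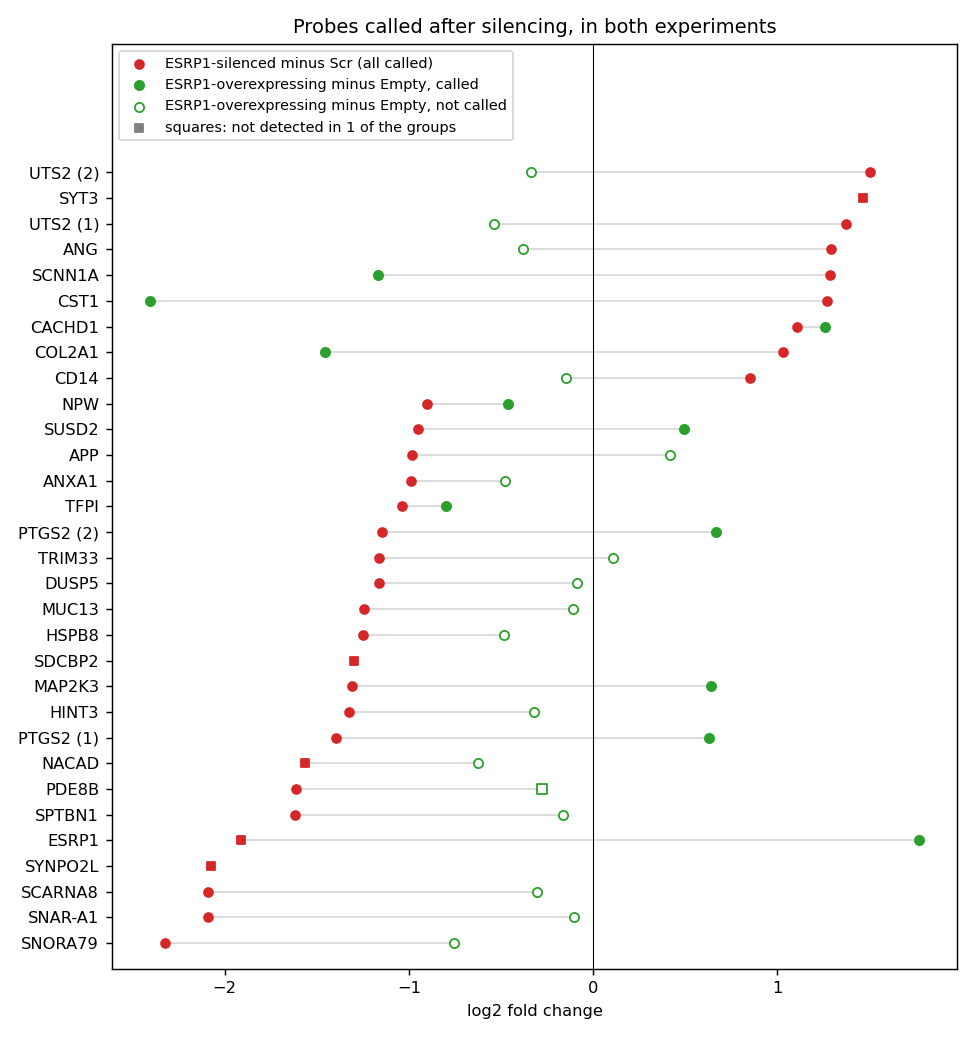
The plot of both experiments shows, for each called probe of the genes named here, its log2 fold change in ESRP1-silenced minus Scr cells (red) and in ESRP1-overexpressing minus Empty cells (green, filled where called). Squares are fitted differences of probes not detected in a group, and no green point is drawn where a probe was detected in neither group. CST1 spans from 1.27 to -2.40 and SCNN1A from 1.29 to -1.17, while CACHD1 lies on the same side in both.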

How the data were processed

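RNA of adherent Caco-2 cells was labelled as biotin cRNA and hybridised to Illumina BeadChips. The authors deposited, for each probe and array, the mean intensity without normalization or background correction, with a detection p-value against negative control probes, and a second table of intensities that they had normalized between arrays. The sources used here do not name the normalization. In 88 cells the p-value held a comma and was read as 1. The neqc function of limma version 3.58.1 (R 4.3.3, offset 16) corrected background, quantile-normalized all 8 arrays and took log2. Probes detected (p under 0.01) on 2 or more of the 4 Scr and ESRP1-silenced arrays entered 1 limma fit of 4 groups (4 residual and 2.98 prior degrees of freedom), with two-sided p-values adjusted by Benjamini-Hochberg over all 17499 probes and calls at 0.05. Pairs of probes of a gene were fitted the same way on their differences. The fits were checked on simulated data. Symbols came from the platform annotation (1 for 30113 probes, several for 8, none for 17201), and 3589 tested probes had none.

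Gene lists were described by counts and medians with the brightest probe of each gene. The members and lists were chosen with earlier results of these data known. Named were ESRP1 and genes the study discusses, all called probes with a symbol (except 1 gene that is not reported here), the next genes by size up to 12 per direction that were detected on all 4 arrays and did not overlap, up to 4 genes of a list, and the 10 probe pairs with the smallest p. The number of arrays limits the precision. The alternatives were other normalizations, filters, fits and variance priors, omission of each array, a block for the replicate number, and the methods' t-test with its thresholds (p under 0.01, fold over 1.5). The main fit did not pair the samples by replicate number, and the labels do not say whether they were paired (correlation of their deviations 0.0665).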

Additional observations from a re-analysis of the deposited data

How the results depend on the processing

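The count of 36 called probes (10 higher, 26 lower) depended on the fit. It was 0 with the 4 arrays normalized and fitted alone, with only these 4 arrays in the fit and without a detection filter. It was 0, in a range from 0 to 0 in both directions, on leaving out any 1 of the 8 arrays, where a lone array was assumed to vary like the other groups. It was 300 (148 higher, 152 lower) with quantile normalization and no background correction, 250 (117 and 133) on the authors' normalized values and 556 (255 and 301) with a trended and robust variance prior. Of the 36 probes, 35, 35 and 34 were among these calls. The count was 47 with detection on all 4 arrays and 24 (6 higher) with detection on at least 2 of 8 arrays. The methods' thresholds gave 124 (54 and 70), and the same test after Benjamini-Hochberg adjustment gave 0. At an unadjusted p under 0.05 limma's fit gave 1254 higher and 1246 lower probes. The cause of these differences was not tested.
The ESRP1 log2 fold change was -1.01 on the authors' values (adjusted p = 0.0036), -0.95 with quantile normalization and no background correction (adjusted p = 0.0026), -2.09 with the 4 arrays alone (adjusted p = 0.12) and -1.91 in the fit of only 4 arrays (adjusted p = 0.073) and without the detection filter (adjusted p = 0.14). It ranged from -2.06 to -1.77 on leaving out 1 array (adjusted p from 0.0543 to 0.271), all from limma and none past the threshold. With the replicate number as a block the fit gave 0 calls, 0 higher and 0 lower, and -1.91 for ESRP1 (adjusted p = 0.21). The labels do not say whether replicate numbers pair the Scr and ESRP1-silenced samples. The correlation of their deviations, 0.0665, cannot decide it, so the block fit is given beside the main fit. Probe pairs gave 0 calls under every alternative run.
On leaving out 1 array or on the authors' values, signs turned for a few small changes. AKT1 (dimmer probe) ranged from -0.059 to 0.079, ENAH from -0.48 to 0.10 on its brighter probe and from -0.45 to 0.48 on the other (-0.0027 on the authors' values), FGF18 (brighter probe) from -0.35 to 0.28, GSK3B from -0.32 to 0.055 and RPS28 from -0.0083 to 0.54.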
